A study of Mus musculus with 7 samples.

Results

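The 4 control libraries of a lung lavage RNA-seq series fall far apart in their level of Lyz2, the lysozyme M gene, and they are compared here in sides chosen by that measured level. Control libraries 1 and 4 held 76927 and 118781 normalized counts of Lyz2 and form the high side, above 10000. Control libraries 2 and 3 held 770.1 and 721.3 and form the low side, below 2000. No control library lay between 770.1 and 76927, so the place of the thresholds decides nothing within that range. These 4 libraries are of 7 in the series, and the 3 knockout libraries are not used. Of 16476 genes in the deposited table, 13031 other than Lyz2 had a mean of at least 10 normalized counts over the 4 libraries and were compared.

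All 4 libraries carry the same labels: C57BL/6 mice of genotype LysM Cre, given lipopolysaccharide (LPS, a component of bacterial outer membranes) into the trachea, with bronchoalveolar lavage (BAL) cells taken 3 days later. Neutrophils were removed from the lavage with antibodies before RNA was extracted, so the libraries hold the remaining airspace cells. The labels give no age or sex, no number of copies of the Cre allele, and no statement that each library is a mouse of its own. Because the sides were set by a measured value and hold 2 libraries each, all differences below are descriptions without a test. Each is read against the distance between the libraries of 1 side, which may be technical.

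Lysozyme M is a secreted enzyme that cuts peptidoglycan of bacterial walls, and macrophages, monocytes and neutrophils make it in large amounts. Its gene is the site of the LysM-Cre allele: Cre was placed in the first exon, where it interrupts the lysozyme coding sequence, and a mouse can carry the allele on a single copy of the chromosome or on both. Cre from this allele is active in myeloid cells, neutrophils and alveolar macrophages among them. Beside Lyz2 lies its near copy Lyz1, known as the lysozyme of Paneth cells in the intestine.

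The libraries held 9903284 to 13353733 recovered reads and 16201 to 16358 genes with a read. Lavage markers were present in all 4: the alveolar macrophage gene Chil3 stood at 49994 to 78990 normalized counts, the monocyte receptor Ccr2 at 2117 to 3462, the T cell receptor chain Cd3e at 506 to 576 and the natural killer cell receptor Ncr1 at 197 to 470. Ly6g, which defines mature neutrophils, stood at 8.81 to 14.2, while other neutrophil genes such as S100a8, a calcium-binding protein also made by monocytes, stood at 3668 to 5151. The values describe mixed cells, in which fewer cells of a type and less RNA per cell cannot be told apart.

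Lyz2 (ENSMUSG00000069516, GRCm38 chromosome 10, 117277331 to 117282321, minus strand) took 0.614% and 0.957% of all reads in controls 1 and 4, against 0.00634% and 0.0061% in controls 2 and 3. These were 75743 and 94725 reads against 787 and 815. The nearest libraries of the sides were 99.8-fold apart and the log2 difference was 7.001, which is what defined the sides. No other gene came near this separation. The widest distance between the nearest libraries of the sides was 2.62 on the log2 scale for any other gene, a clone-named transcript, AL513022.1, against 6.64 for Lyz2.

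Lyz1 (ENSMUSG00000069515, chromosome 10, 117287797 to 117292868, minus strand), whose lower coordinate lies 10.466 kb from that of Lyz2, showed another pattern. It held 839.9 and 66.5 normalized counts in controls 1 and 4 and 1191 and 885.9 in controls 2 and 3. Control 4 alone was far down, at 7.502% of the median of the other 3 libraries, with 53 reads against 827 to 1217 in the others. Control 1, the other high-Lyz2 library, lay just under control 3. The annotated transcripts compared for both genes share 1211 of 1262 aligned bases (96.0%), with identical runs of up to 118 bases. Reads can therefore be split between the genes.

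The 2 genes are also near copies ahead of their RefSeq starts, which is why both stretches are shown here. They are the 150 bases before the RefSeq start in GRCm38.p6, read 5′ to 3′ on the minus strand, at chr10:117282273-117282422 for Lyz2 and chr10:117292869-117293018 for Lyz1. Capitals mark the 21 bases that differ between them.
Lyz2: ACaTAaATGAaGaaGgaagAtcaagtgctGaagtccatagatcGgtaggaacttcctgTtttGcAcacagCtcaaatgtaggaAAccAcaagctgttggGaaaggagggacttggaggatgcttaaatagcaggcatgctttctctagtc
Lyz1: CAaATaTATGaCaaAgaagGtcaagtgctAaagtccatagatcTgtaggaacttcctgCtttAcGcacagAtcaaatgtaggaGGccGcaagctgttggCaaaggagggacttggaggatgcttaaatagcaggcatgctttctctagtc
The stretches are 86.0% the same, and the last 50 bases before the RefSeq start are identical. For Lyz2 the gene position given above, from GENCODE, reaches 117282321. The bases of its stretch from 117282273 to 117282321, nearly all of the identical run, therefore lie within the gene as GENCODE places it.

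**Figure D1:**
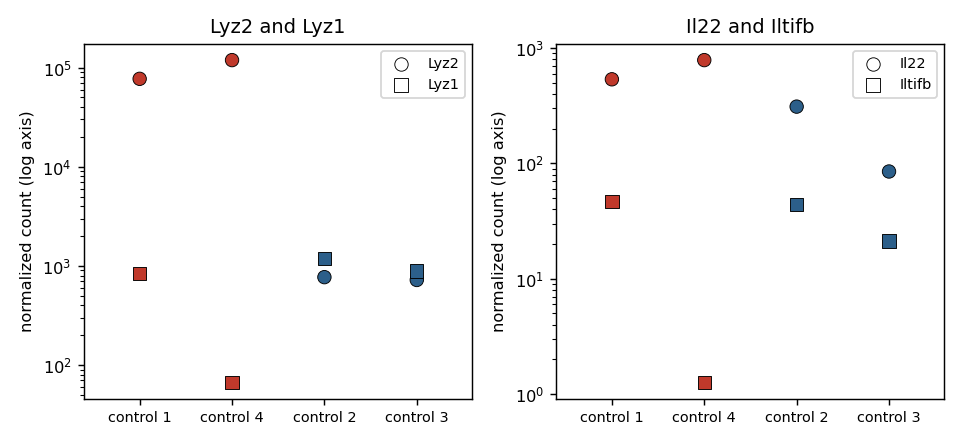
Normalized counts on log axes of 2 pairs of near-copy genes on chromosome 10 in each control library, red for high Lyz2 and blue for low Lyz2. Lyz2 stands at 76927 and 118781 in controls 1 and 4 and below 1000 in the others, while Lyz1 and Iltifb are lowest in control 4.

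Other genes around Lyz2 did not follow it. Within 5 Mb on either side, 43 other genes were compared, and 37 of them differed by less than 0.5 on the log2 scale, with a median of -0.01. Cpsf6, a factor of mRNA 3′ end processing, held 1614 and 1576 normalized counts on the high side and 1909 and 1605 on the low side. Yeats4, a chromatin reader, held 558.6 and 492.8 against 528.4 and 521.3, and Frs2, an adaptor of growth factor receptors, 624.6 and 653.3 against 669.3 and 625.7. Ifng, the interferon gamma gene, held 512.9 and 896.6 against 734.9 and 725.7. In none of these did the difference exceed the distance between libraries of a side, and only Il22 (higher) and Lyz1 (lower) of the 43 were 2-fold apart without overlap.

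Il22 (chromosome 10, 118204942 to 118210047) encodes interleukin 22, a cytokine from lymphocytes that acts on epithelium. It held 535.2 and 785.0 normalized counts in controls 1 and 4, and 310.2 and 85.0 in controls 2 and 3, a log2 difference of 1.99. The low libraries were themselves 1.86 apart on that scale, and the difference was 1.06 without control 3. Its neighbouring near copy Iltifb held 46.7 and 1.25 on the high side and 44.0 and 21.2 on the low side, which overlap. Iltifb made up 8.03% of the pair's counts in control 1, 12.4% in control 2 and 20% in control 3, but 0.159% in control 4, where a single read was counted. Their transcripts share 97.4% of 1110 aligned bases. Control 4 was thus the lowest library for the second copy of both pairs, Lyz1 and Iltifb.

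**Figure D2:**
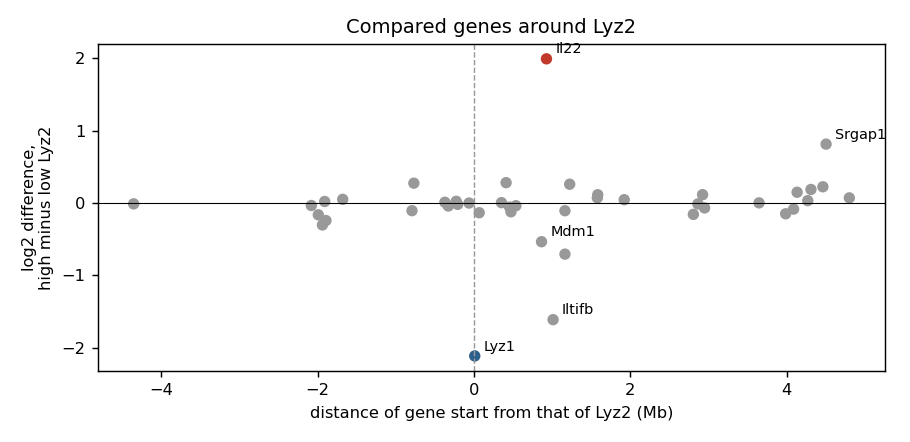
Log2 difference (high minus low Lyz2) of the 43 compared genes within 5 Mb of Lyz2, with Lyz2 itself left out. The horizontal axis is the distance of their lower coordinates, labelled gene start whatever the strand, from that of Lyz2. Most points lie near 0, Il22 at 1.99 and Lyz1 at -2.11 stand apart, and Iltifb is grey because its sides overlap.

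Across all genes the sides differed little. Counting a gene as differing when both libraries of a side lay beyond both of the other and the log2 difference was at least 1, 67 of 13031 genes were higher in the high-Lyz2 libraries (0.514%) and 150 were lower (1.15%), or 217 in all (1.67%). Without the 2-fold condition, 2747 genes were higher with no overlap (21.1%) and 2586 lower (19.8%), 5333 in all (40.9%), and these shares are the background for every gene group below. Where even the nearest libraries of the sides had to be 2-fold apart, 9 genes were higher (0.0691%) and 39 lower (0.299%). The median log2 difference over all genes was 0.004. Of the 217 genes, 32 had libraries of 1 side further apart than the sides themselves. Weakly detected genes were counted more often: 5.16% of genes with a mean of 10 to 50 differed, against 0.393% of those at 500 and above.

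**Figure D3:**
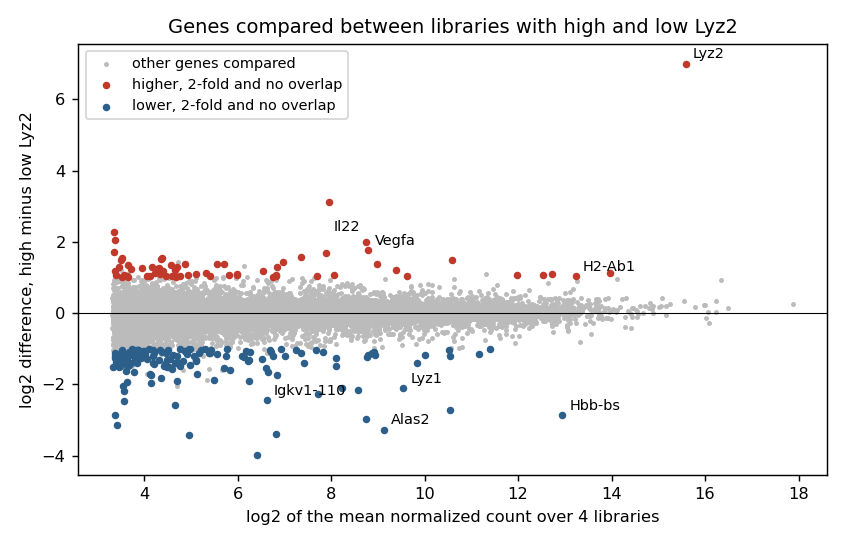
Log2 difference (high minus low Lyz2) against the log2 mean normalized count for each gene compared and Lyz2. Red points are higher and blue points lower by 2-fold with no overlap, and Lyz2 at 7.001 lies far above all others.

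Over all genes compared, the pairs of libraries did not sort by Lyz2. Controls 2 and 3, both low, had 277 genes 2-fold or more apart, the fewest of the 6 pairs. Controls 1 and 4, both high, had 411, more than the 335 between control 2 and control 4, which are on opposite sides. The largest number, 646, lay between controls 1 and 3. Among the 10278 genes with a mean of at least 50 the numbers were 63, 70, 72 and 221 for the same pairs. In these genes both pairs within a side were closer than every pair across sides (72, 104, 139 and 221), by a narrow margin. By the standard deviation of the log2 ratio in the same genes, controls 2 and 4 (0.261) were closer than controls 1 and 4 (0.267). Controls 1 and 3, the furthest apart by both counts, lay at opposite ends, as they did in the red cell genes below.

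**Figure D4:**
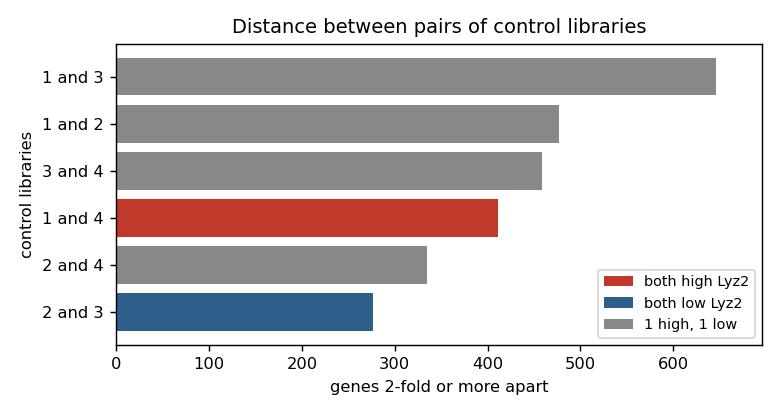
Number of the 13031 compared genes that were 2-fold or more apart in each of the 6 pairs of control libraries. The pair of low-Lyz2 libraries (277) is closest, and the pair of high-Lyz2 libraries (411) is further apart than controls 2 and 4 (335).

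Genes of red cells were lower in the high-Lyz2 libraries. All 5 globin and heme genes compared, the red cell part of a list of 7 erythroid and platelet genes, were at least 2-fold lower with no overlap, and the list's median was -2.71. Hbb-bs, a beta globin gene, held 918.1 and 3155 normalized counts in controls 1 and 4 and 7818 and 19517 in controls 2 and 3. Hba-a1, an alpha globin gene, held 206.2 and 616.9 against 1505 and 3652. Alas2, the first enzyme of heme synthesis in red cells, held 45.7 and 181.8 against 542.1 and 1472, a log2 difference of -3.27. In each the libraries had the same order, lowest in control 1, then 4, then 2, and highest in control 3, and the libraries of a side were 1.28 to 1.97 apart on the log2 scale in these 3 genes. The globin copies within a cluster are near copies, so reads may be split between them.

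The platelet genes of the list did not share this order. Pf4, a platelet chemokine, held 66.0 and 28.8 against 37.2 and 31.0, and Itga2b, a platelet integrin, 7.11 and 13.8 against 12.7 and 12.4. The summed level of the list ran from 1327 to 4271 normalized counts on the high side and from 10571 to 26222 on the low side. Bpgm, the enzyme that makes bisphosphoglycerate in red cells, held 134.1 and 176.8 against 264.2 and 522.1. It belongs to 7 further red cell genes chosen after their values were seen, of which 4 were lower and 1 higher without overlap, with a median of only -0.08. The higher gene, the mitochondrial iron importer Slc25a37, had a log2 difference of 0.34. Xpo7, counted among the 4 lower genes, differed by only -0.02, and Bnip3l, with a difference of -0.08, overlapped between sides. With single libraries left out, the median of the list stayed between -3.50 and -1.92.

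MHC class II genes were higher in the high-Lyz2 libraries. These molecules show peptides to CD4 T cells and are made by dendritic cells, B cells and activated macrophages. Of 14 genes of class II presentation and costimulation, 9 were higher with no overlap and 0 lower, and 1 reached 2-fold, with a list median of 0.61. Among the chains, H2-Ab1 (chromosome 17, 34257689 to 34269419) held 13373 and 12507 normalized counts on the high side and 5733 and 6927 on the low side, a log2 difference of 1.04. H2-Aa, which encodes its partner chain, held 12296 and 13103 against 6021 and 7819, and H2-Eb1 held 7926 and 8460 against 3976 and 5156. The libraries of a side were close together for these genes, 0.10 and 0.27 apart on the log2 scale for H2-Ab1.

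The helpers of class II assembly differed in the same direction. Cd74, the invariant chain that fills the groove before peptide loading, held 23363 and 23714 against 11267 and 12892. H2-DMa, a chain of the peptide exchanger, held 1478 and 1432 against 807.3 and 861.1. Ciita, the transcriptional activator of class II genes, held 989 and 1125 against 649 and 586. The costimulatory ligands Cd80 and Cd86 overlapped between sides, with log2 differences of -0.13 and -0.01. Of the 9 B and plasma cell genes, Blk, a B cell kinase also found in some T cells, and Fcrla were higher without overlap, Blk at 122 and 176 against 105 and 89.4 and Fcrla at 29.5 and 25.1 against 20.55 and 24.8. The B cell receptor chain Cd79a overlapped, at 12.2 and 16.3 against 9.78 and 13.3, and the summed level of the list was 924 and 1300.4 against 1239 and 1582. Markers of dendritic cells are given below, and the part of B cells and dendritic cells in the class II difference was not tested. The median of the list stayed between 0.64 and 0.70 with single libraries left out.

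The 100 bases before the start are shown for 3 class II genes, from RefSeq in GRCm38.p6 and read 5′ to 3′ along the gene. Capitals mark ATTGG or its reverse complement CCAAT, the core of the Y box that NF-Y is known to bind in class II promoters. The stretches lie at chr17:34287824-34287923 on the minus strand for H2-Aa, and on the plus strand at chr17:34305767-34305866 for H2-Eb1 and chr17:34153091-34153190 for H2-DMb1.
H2-Aa: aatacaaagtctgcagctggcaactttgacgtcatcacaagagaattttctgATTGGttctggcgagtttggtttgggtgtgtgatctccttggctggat
H2-Eb1: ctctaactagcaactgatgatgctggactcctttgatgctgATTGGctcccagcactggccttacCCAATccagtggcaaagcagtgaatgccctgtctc
H2-DMb1: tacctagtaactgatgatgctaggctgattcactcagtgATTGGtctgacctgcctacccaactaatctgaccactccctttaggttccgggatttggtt
These 3 genes are shown because their windows hold the motif. Of 8 class II genes looked up, 6 have entries, and 5 of these hold it (H2-Oa and H2-Ob besides), while neither of the 2 listed windows of H2-DMa does. The motif is also in 6206 of 32851 promoter windows in the table (18.9%) over the same 100 bases. H2-DMb1 itself held 995 and 1080 normalized counts on the high side and 586 and 666 on the low side.

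Dendritic cell markers were divided. Of 14 compared, 4 were higher and 4 lower with no overlap, and the list median was -0.19. Siglech, a receptor of plasmacytoid dendritic cells that some macrophages also carry, held 142.2 and 223.2 against 79.3 and 54.0. Clec9a and Xcr1, which mark cross-presenting dendritic cells, had log2 differences of 1.00 and 0.65. Fscn1 and Ccr7, an actin bundler and a chemokine receptor of mature migrating dendritic cells, were lower, Fscn1 at 235.6 and 361.1 against 581.2 and 692.9 and Ccr7 at 503 and 631 against 799 and 906. Flt3 and Zbtb46, which define conventional dendritic cells, overlapped between sides.

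Markers of natural killer cells were lower on the high side mainly through control 1. Of 20 compared, 13 were lower with no overlap and 1 higher, none by 2-fold, with a median of -0.42. Klrb1c, the NK1.1 receptor, held 99.5 and 163 normalized counts against 206 and 291, and Klrk1, the NKG2D receptor, 876.5 and 1364 against 1521 and 1704. Gzma, which encodes granzyme A, held 1707 and 3164 against 3657 and 3946. Nkg7, a cytotoxic granule protein, overlapped between sides with a log2 difference of -0.06. The summed level of the list was 20039 in control 1 and 26390 in control 4, against 28250 and 28030 in controls 2 and 3. With single libraries left out, its median ran from -0.70 to -0.12.

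**Figure D5:**
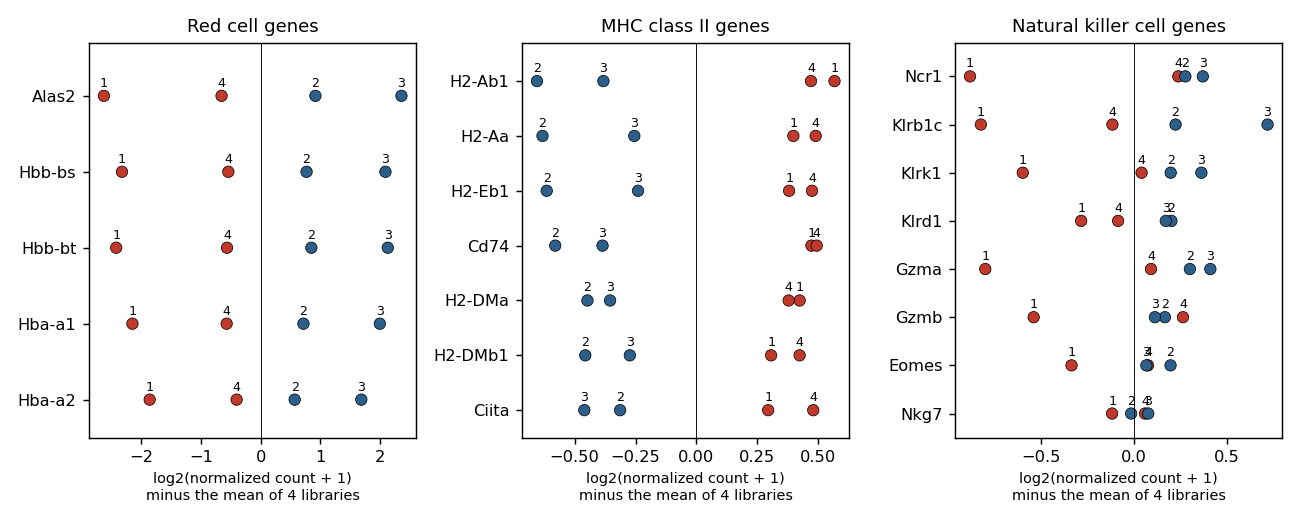
Log2(normalized count + 1) of genes of 3 groups in each control library, as the distance from the mean of the 4 libraries, with the library number above each point, red for high and blue for low Lyz2. Red cell genes run in the order 1, 4, 2, 3, class II genes separate the sides with little spread, and natural killer cell genes are lowest in control 1.

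T cell markers differed less, with 6 of 22 higher and 3 lower without overlap and a median of 0.08. Cd3g, a chain of the T cell receptor complex, held 749 and 865 against 596 and 588, whereas Cd3e overlapped. The cytokine Il17a, made by type 17 T cells and gamma delta T cells and chosen after its values were seen, held 218.4 and 492.8 against 183.0 and 55.8, with control 4 highest and control 3 lowest as for Il22. Of 9 B and plasma cell genes, 2 were higher and 2 lower without overlap. Both lower genes, Igkc and Jchain, encode parts of antibodies: Igkc held 252 and 398 against 503 and 781. A variable segment, Igkv1-110, had the widest distance between sides of all named lower genes, with 33.5 and 26.3 normalized counts against 153.6 and 181.4.

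Markers of the macrophages, in which Lyz2 is chiefly made, did not separate the sides. Of 22 genes of resident alveolar macrophages, 3 were higher and 2 lower without overlap, with a median of 0.11, and none was 2-fold apart. Siglecf, the surface lectin of these cells, held 359.5 and 180.6 against 205.5 and 106.2, and Marco, a scavenger receptor, 771.9 and 282.1 against 366.9 and 223.9. Control 1 was the highest library for both, and control 4 lay among the low-Lyz2 libraries. Leaving out single libraries moved the list median between -0.29 and 0.55. Of 21 genes of monocytes and recruited macrophages, 5 were higher and 5 lower without overlap. Csf1r, the receptor for the macrophage growth factor, held 14031 and 15814 against 12021 and 13848, and Arg1, arginase, 2388 and 3058 against 3282 and 5036.

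Genes with products that share the compartments or the role of lysozyme were examined next. Of 10 lysozyme and antimicrobial genes, 4 were higher and 3 lower without overlap, with a median of -0.05. Reg3g, an antibacterial lectin, held 479.4 and 247.0 against 228.0 and 118.6, and Lcn2, which binds bacterial siderophores, 19294 and 15595 against 21929 and 23693. Of 28 lysosome and phagosome genes, 16 were higher without overlap and 1 lower, against a background of 21.1% and 19.8%, but the largest log2 difference was 0.43 and the median was 0.16. Hexa, a lysosomal hexosaminidase, held 4532 and 3983 against 3257 and 3038, and Ctsd, the protease cathepsin D, 16778 and 13788 against 11674 and 11347.

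Of 21 genes of peptidoglycan and microbial sensing, 7 were higher and 1 lower without overlap, with a median of 0.09. Clec7a, the beta-glucan receptor dectin-1, held 9123 and 6879 normalized counts against 4664 and 3046. Nod2, a sensor of peptidoglycan fragments, held 811 and 732 against 708 and 487. Tlr4, the LPS receptor, overlapped at 1943 and 1759 against 1884 and 1743. Neutrophil genes were split, with 7 of 18 higher and 6 lower without overlap. Mmp8, a collagenase of neutrophil granules, held 1228 and 1589 against 2407 and 3945, and Ngp, a granule protein of immature neutrophils, 13.2 and 20.1 against 40.1 and 53.1. Camp, the cathelicidin gene, went the other way, with 22.3 and 20.1 against 11.7 and 9.73.

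Genes of hypoxia and glycolysis were mostly higher in the high-Lyz2 libraries. Of 22 compared, 14 were higher without overlap and 1 lower, with a median of 0.26. Vegfa, the vascular growth factor, held 565.7 and 791.2 against 263.2 and 145.1, a log2 difference of 1.77. Egln3, an oxygen-sensing hydroxylase induced by hypoxia, held 414 and 583 against 279 and 289. The glycolytic enzymes differed far less, Ldha by 0.23 and Pgk1 by 0.28. Ndrg1, also induced by hypoxia, was the lower gene, with 416 and 440 against 638 and 545. The median stayed between 0.15 and 0.33 with single libraries left out.

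Genes of lipid handling differed in both directions. Of 24 compared, 9 were higher and 7 lower without overlap, with a median of 0.10. Plin2, which coats lipid droplets, held 7706 and 7234 against 13711 and 12673, and Cd36, a fatty acid receptor, 858 and 582 against 1309 and 1039. Abcg1, a cholesterol exporter, held 5750 and 4998 against 3915 and 3625. Of 21 sterol synthesis genes, 11 were lower without overlap and 0 higher, with a median of -0.26 that ran from -0.46 to -0.06 with single libraries left out. Hsd17b7, an enzyme of this pathway, held 154 and 82.8 against 184 and 227, and Cyp51, a demethylase of lanosterol, 514 and 340 against 523 and 571, both lowest in control 4.

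Several cytokine and interferon genes were lowest in control 3, Tnf and Rsad2 among them. Of 20 proinflammatory genes, 5 were higher and 1 lower without overlap, with a median of 0.33 that ran from -0.09 to 0.72 with single libraries left out. Tnf, which encodes tumour necrosis factor, held 3543 and 3210 against 3061 and 1447. Csf2, which encodes the growth factor GM-CSF, held 23.4 and 40.1 against 7.83 and 12.4. Of 20 chemokine genes, 6 were higher and 3 lower without overlap (median 0.13), and Cxcl1, a neutrophil attractant, held 24.4 and 6.27 against 26.4 and 51.3. Of 24 type I interferon response genes, 11 were higher without overlap and 0 lower (median 0.17), with Rsad2, an antiviral enzyme, at 5238 and 4586 against 4179 and 2975. Of 22 interferon gamma response genes, 6 were higher and 1 lower (median 0.19), and Ciita had the highest difference among them. Of 13 alternative activation genes, 2 were higher and 3 lower (median -0.14).

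Among the lists of general cell state, 11 of 26 cell cycle genes were higher without overlap and 0 lower (median 0.14), with Top2a, a topoisomerase of dividing cells, at 2320 and 2168 against 1854 and 1589. The mean log2 level of the cell cycle list was 8.61 in control 1 but 8.27 in control 4, against 8.33 and 8.19 in controls 2 and 3. Its median ran from 0.04 to 0.36 with single libraries left out. Of 19 heat shock and stress genes, 9 were higher and 0 lower (median 0.18), and Trib3, a stress-induced pseudokinase, held 157.4 and 102.8 against 74.4 and 40.7. The mean log2 level of this list was 9.79 and 9.68 in controls 1 and 4, against 9.63 in control 2 and 9.16 in control 3. Its median ran from 0.05 to 0.33 with single libraries left out. Of 20 early response genes, 3 were higher and 5 lower (median -0.001). Of 12 iron and heme genes, 7 were higher and 1 lower (median 0.15). Slc40a1, the iron exporter of macrophages, held 298.6 and 252.0 against 169.3 and 106.2.

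Ribosomal protein and mitochondrial genes differed little in size. Of 23 ribosomal protein genes, 14 were higher without overlap and 0 lower with a median of only 0.08. Of 10 mitochondrially encoded genes, 4 were higher and 0 lower (median 0.28). Mir6236 and Lars2, both on chromosome 9, were among the genes furthest apart on the higher side: Mir6236 held 2321 and 2199 against 725 and 904, and Lars2, the mitochondrial leucyl-tRNA synthetase, 23906 and 19649 against 8058 and 12161. Both ran from control 1, the highest, through 4 and 3 to control 2. The clone-named Gm23935 and Gm24187, annotated as miRNA, and Gm15564, an antisense RNA, had the same order. Their log2 differences were 1.11, 1.22 and 1.39. Gm24366, also annotated as miRNA, was lower, with a log2 difference of -1.18. Whether the reads counted at these genes come from their own transcripts was not tested. The mitochondrial ribosomal RNAs mt-Rnr1 and mt-Rnr2 differed by 0.10 and 0.08 on the log2 scale.

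Other lists of cells that lavage can carry held few differences. Of 12 epithelial genes, 1 was higher and 2 lower without overlap (median 0.19), with Epcam, an adhesion protein of epithelium, at 17.3 and 25.1 against 12.7 and 18.6. Of 7 endothelial and stromal genes, 2 were higher and 1 lower (median 0.27). The lower one, the collagen gene Col1a2, held 11.2 and 1.25 against 12.7 and 15.04, so it rests on control 4. Of 3 eosinophil, basophil and mast cell genes, 1 was higher and 1 lower. The 4 Y-linked genes listed as sex markers were present in every library, so no library lacked Y transcripts. Kdm5d stood at 501 to 564 normalized counts and Uty at 406 to 434.

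Among other named higher genes, Gdf15, a stress-induced cytokine, held 82.3 and 67.7 against 36.2 and 22.1. Olfml3, a secreted olfactomedin-like protein, held 206.2 and 275.9 against 53.8 and 115.9, and Adgre4, a myeloid adhesion receptor, 272.2 and 225.7 against 136.0 and 131.0. Npnt, an integrin ligand of basement membrane, Plpp3, a lipid phosphatase, and Ppm1n, a phosphatase family member, were also higher, by 1.08, 0.84 and 1.10 on the log2 scale. Among named lower genes, Ptx3, a soluble pattern recognition protein, held 113.8 and 180.6 against 410.0 and 390.3, and Edn1, the vasoconstrictor endothelin 1, 77.2 and 143.0 against 289.6 and 701.8. Crispld2, a secreted protein induced by glucocorticoids, held 122.9 and 140.4 against 398.2 and 872.6. Notch4, a Notch receptor, and Efnb2, an ephrin ligand, had log2 differences of -1.64 and -1.55. Adamtsl4, a protein of matrix microfibrils, Sertad4 and Slc27a3, an enzyme that activates fatty acids, had log2 differences of -1.41, -1.92 and -1.58.

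By position, the share of compared genes 2-fold apart without overlap ran among the autosomes from 0.346% on chromosome 18 to 2.90% on chromosome 6, with none of the 6 genes on chromosome Y and none of the 13 mitochondrial genes, and it was 1.28% on chromosome 10, which carries Lyz2. The densest window of 20 neighbouring compared genes held 5 such genes and lay on chromosome 7 (51997171 to 64345964). They did not share a direction: Siglech was higher (1.43 on the log2 scale) and Svip lower (-1.02). The others, the clone-named Gm27252, E030018B13Rik and Gm20457, were lower. Long noncoding or unverified transcripts were counted more often (5.71% of 998) than protein coding genes (1.26% of 11588).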

How the data were processed

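RNA from lavage cells was sequenced with KAPA mRNA libraries, per the labels' protocols. The submitters' processing notes name the build GRCm38 (mm10) and, without roles, the tools STAR 2.5.3a, cutadapt 1.15, HTSeq and DESeq2. For the counting, neither a strand setting nor an annotation is given in the sources used here, so overlapping and antisense genes are uncertain. The authors deposited 1 table with a signal column per library, read counts divided by a size factor. 100% of values were whole multiples within 0.01, and whole reads were recovered. Per the file headers, the same table holds the authors' log2 fold changes, test statistics (a score), p-values and standard errors for knockouts against controls, which were not used.

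The members and gene lists were chosen with earlier results of these data known. Differences are on the log2(normalized count + 1) scale. No count test was run, because the sides were set by a measured value. The gap of a gene is the log2 distance between the nearest libraries of the sides. Named genes were Lyz2, Lyz1, the 15 higher and 15 lower genes with the widest gap at a mean of at least 50 (clone names left out), up to 3 differing members per direction of each of 30 lists, the first 3 markers of each cell type, the Y-linked genes and neighbours of Lyz2; of these, 1 gene is left unreported. Members named beside these, and the glucocorticoid, type 17 and further red cell lists, were added with their values already known. Gene positions are those of GENCODE M21 (99.84% of identifiers matched), and 21 symbols stored as dates were restored. A count of 0 allows 3 reads, 2.65 to 3.76 normalized counts, for counting error only. No pair of libraries was a copy: the chi-square per gene was 7.83 to 25.5. The calculation was tested on simulated data. Python 3.11.15, R 4.3.3 and edgeR 4.0.16 (scaling factors) were used. Alternatives were other pseudocounts, filters, scalings and call rules, and each library left out.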

Additional observations from a re-analysis of the deposited data

Results flagged for a closer look

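In 5 of 118 values examined, 1 library stood apart from the other 3 relative to the range of the unlogged counts. The distance itself can be small. Among values not picked by their pattern, chance flags about 1 in 20. Many values here belong to genes picked because the sides did not overlap, so this rate cannot be set against the number flagged. Ncr1, a natural killer cell receptor, stood at 197 normalized counts in control 1 and at 429 to 470 in the others. S100a9, a calcium-binding protein of myeloid cells, stood at 2793 in control 1 and at 3356 to 3398 in the others. Ddx3y, a Y-linked helicase, stood at 1382 in control 4 and at 1611 to 1655 in the others. In control 2, Cpsf6 stood at 1909 with the others at 1576 to 1614, and Cct2, a chaperonin subunit, at 2946 with the others at 3057 to 3074.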

How the results depend on the processing

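No paired analysis was possible because no control library was compared with a knockout library and no test was run. The number of genes higher and lower on the high-Lyz2 side, 67 and 150, followed the rule used to count them. It was 24 and 61 with a pseudocount of 10, 26 and 49 with a minimum mean of 50, and 226 and 559 with no minimum. It was 9 and 39 where the nearest libraries had to be 2-fold apart, and 302 and 508 at 1.5-fold. With single libraries left out, 89 to 178 genes were higher and 179 to 315 lower (178 and 238 without control 2, 133 and 315 without control 4), since fewer libraries must then not overlap. A pseudocount of 0.5 and the 3 other scalings kept both numbers within 1.5 times. All 38 named genes that were 2-fold apart without overlap kept their sign in each of the 13 alternatives. This is no check of them, because a gene without overlap cannot change sign when a library is left out. Filters and call rules do not alter its difference at all. Of the 30 list medians, 20 kept their sign in every alternative. The median of 1 list, the early response genes, changed sign under another scaling. Lyz1 differed by -0.29 without control 4. With 2 libraries a side, and 9903284 to 13353733 reads each, genes with means near 10 are measured with few reads.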

Other observations

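Several textbook targets of the glucocorticoid receptor were lower in the high-Lyz2 libraries, a group assembled after the values were seen. Of 16 such genes compared, 9 were lower without overlap (19.8% of all genes were) and 0 higher. By 2-fold 6 were lower (1.15% of all genes were), and the median log2 difference of the 16 was -0.77. Because the genes were picked with their values known, these shares are no test of the group. Fkbp5, a chaperone of the receptor, held 1925 and 1663 normalized counts in controls 1 and 4 against 3040 and 4246 in controls 2 and 3. Klf9, a transcription factor, held 308.8 and 216.9 against 421.7 and 820.4, and Zbtb16, another, 64.0 and 62.7 against 85.1 and 200.01. Tsc22d3, which encodes the glucocorticoid-induced leucine zipper, held 2346 and 2439 against 2776 and 4812. Control 3 was the highest library for each of these. Sgk1, a kinase gene also induced by glucocorticoids, overlapped at 9142 and 9065 against 9010 and 9732.

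Of 10 genes of type 17 and type 2 lymphocytes, assembled in the same way, 4 were higher and 2 lower without overlap. Il17f overlapped, with 279.3 and 451.4 against 365.0 and 110.6. Gata3, of type 2 cells, held 139.1 and 134.2 against 141.9 and 109.7.

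Some genes were nearly absent from 1 library. Slc15a2, a peptide transporter, held 290.5 and 455.2 in controls 1 and 4 and 246.6 in control 2, but 6.19 in control 3. Gm16432 held 68.0, 177.1 and 96.5 in controls 1, 2 and 3 and 0 in control 4, where a count of 0 allows up to 3.76 normalized counts.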
